A study of Mus musculus with 30 samples.

Results

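Interferons are secreted alarm signals that cells release on viral infection. Type I interferons bind the receptor pair Ifnar1 and Ifnar2 and interferon gamma binds Ifngr1 and Ifngr2, and Janus kinases then activate transcription factors, among them Stat2, which acts with Irf9 at the interferon-stimulated response element (ISRE) in promoters. The genes switched on in this way encode RNA sensors, antiviral effectors, the ubiquitin-like protein Isg15 and its enzymes, large GTPases, and the machinery by which MHC class I molecules present peptides to T cells. Skeletal muscle fibres are known for low MHC class I levels at rest, which rise in inflammatory muscle disease.

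Here 39 genes of this response, of 55487 genes in the count table, were followed in C2C12 myotubes. C2C12 is a mouse myoblast line that fuses into multinucleated myotubes when serum is lowered. The members were a named list of interferon-stimulated and MHC class I genes, matched by symbol to their Ensembl gene IDs. The matching used no measured value, but the list was chosen with earlier results of these data known. By role there were 2 RNA sensors, 5 transcription factors, 10 antiviral effectors, 7 ubiquitin-like and PARP modifiers, 4 interferon-inducible GTPases, 6 MHC class I presentation genes and 5 other interferon-stimulated genes. Of the 39, 36 passed the filter on low counts. The other 3 were Nlrc5, the transactivator of MHC class I genes, with 0 to 10 counts in a library, Usp18, the protease that removes Isg15, with 0 to 3 counts, and Gbp3, a guanylate-binding GTPase, with 0 to 7 counts.

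All groups were wild-type C2C12 myotubes that had been differentiated for 4 days in low-glucose medium with horse serum and were then treated for 4 days, 8 days in all. The 5 groups, of 6 libraries each, were kept in 2% horse serum (2% HS), deprived of serum (SD), or deprived of serum with 100 nM metformin (MET), 500 nM leucine (LEU) or both (MET+LEU). Metformin is a type 2 diabetes drug and leucine a branched-chain amino acid. The model is 1 cell line in culture, and since the labels do not say that libraries came from separate cultures, p-values measure only the spread between these libraries.

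The 30 libraries held 12784960 to 19604103 counts on genes. The 8 myotube markers summed to 29296 to 41888 CPM (counts scaled to a common library size, here with edgeR's TMM factors) in every library. Of the 8 macrophage and dendritic cell markers, Adgre1, Siglech and Tyrobp were at 0 in all 30 libraries. Ptprc reached 2 counts, Lyz2 reached 4 and Itgam reached 8. Csf1r held 1 to 12 counts per library and Cd68 held 24 to 58, so not all of these markers were absent. The list summed to 1.78 to 4.79 CPM. MET+LEU replicate 6 stood apart, with 5.85% of counts on nuclear ribosomal RNA genes and 7.64% on mitochondrial ribosomal RNA, against group medians in MET+LEU of 1.13% and 0.709%. The other 5 MET+LEU libraries had 0.649% to 0.76% of counts on mitochondrial ribosomal RNA, compared with 0.219% to 0.306% in 2% HS, 0.281% to 0.367% in SD, 0.244% to 0.705% in MET and 0.501% to 0.71% in LEU, so that MET+LEU did not overlap with 2% HS or SD. The MET+LEU comparisons include replicate 6, and which of their calls were left without it is given beside them.

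The ligands of the pathway were close to absent from the counts. None of 9 interferon genes passed the filter. Ifna1, Ifna2, Ifna4, Ifnl2 and Ifnl3 had no count in any of the 30 libraries, Ifnb1 and Ifna5 reached 1 count, and Ifne and Ifng reached 3 counts, so a difference in ligand mRNA was not detectable at this depth. The receptor genes were well covered, with 759 to 1197 counts of Ifnar1 and 229 to 415 counts of Ifnar2 per library.

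Because the response is defined by shared control elements, the promoters of the members are shown first. Of the 39 members, 32 were found in the RefSeq promoter table of GRCm38.p6, which gives 250 bases before and 50 bases after each start site. The ISRE core searched was GAAANNGAAA on both strands, so it can also read TTTCNNTTTC. It lay in the window of 16 of 32 members (50.0%), compared with 3.99% of 27025 genes. The gamma-activated site (GAS) core TTCNNNGAA, an element of the interferon gamma response, lay in 6 of 32 members (18.8%) and in 9.55% of all genes. Where the GAS and ISRE cores of a promoter overlap, both were counted. The following 50-base stretches upstream of the start site carry the core, in capitals, for 3 members that were higher in SD and for B2m and Isg15, which did not pass the test. All are read 5′ to 3′ on the strand of the gene.
Ifit1 (chr19:34640765-34640814, plus strand, core 104 bases upstream): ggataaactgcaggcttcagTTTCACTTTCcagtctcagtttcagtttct
Rsad2 (chr12:26456543-26456592, minus strand, core 120 bases upstream): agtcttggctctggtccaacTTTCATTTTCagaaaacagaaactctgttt
Bst2 (chr8:71537567-71537616, minus strand, core 124 bases upstream): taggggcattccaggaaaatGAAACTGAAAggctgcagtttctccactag
B2m (chr2:122147528-122147577, plus strand, core 139 bases upstream): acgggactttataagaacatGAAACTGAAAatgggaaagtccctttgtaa
Isg15 (chr4:156200861-156200910, minus strand, core 72 bases upstream): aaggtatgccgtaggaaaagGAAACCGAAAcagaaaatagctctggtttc
Ifit1 holds a further core 85 bases upstream, Bst2 a further one 130 bases upstream, and Isg15 further ones 78 and 66 bases upstream that overlap the one shown. Members with and without the core were also counted by their response. In SD vs. 2% HS, 15 tested members with the core in the window had a median log2 fold change of 0.22, with 5 higher and 1 lower, and 16 members without it had a median of 0.19, with 6 higher and 4 lower. The 1 lower member with the core was Irgm1, which holds cores 30 and 24 bases upstream that are not shown here.

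The members covered a wide range of levels. Per kilobase of exon, B2m, the light chain of MHC class I, was highest in 2% HS at 101.6 CPM per kb, followed by Ifitm3 at 84.2 and Ifitm2 at 83.7, membrane proteins that block virus entry. Ifi27 at 15.9 and Tapbp at 14.9 CPM per kb came next, then the MHC class I heavy chains H2-D1 at 8.48 and H2-K1 at 8.00. The lowest tested members in 2% HS were Irf7, Rsad2 and Ifih1, at 0.141, 0.133 and 0.119 CPM per kb. In SD the order of the first 3 was Ifitm2, Ifitm3 and B2m, at 101.9, 98.2 and 98.0 CPM per kb, and these orders were not tested. Ifitm, Ifit, Gbp and H2 genes are families of similar sequence, so their reads can be split or dropped in counting, and the H2 reads of a line derived from another mouse strain were counted against the C57BL/6 genome. Ifitm2 shares 268 exonic bases, 40.9% of its exons, with Gm45717 on its own strand, and reads there could be counted to either gene or to none. Gm45717 held 1 count over all libraries and Ifitm2 30104.

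**Figure D1:**
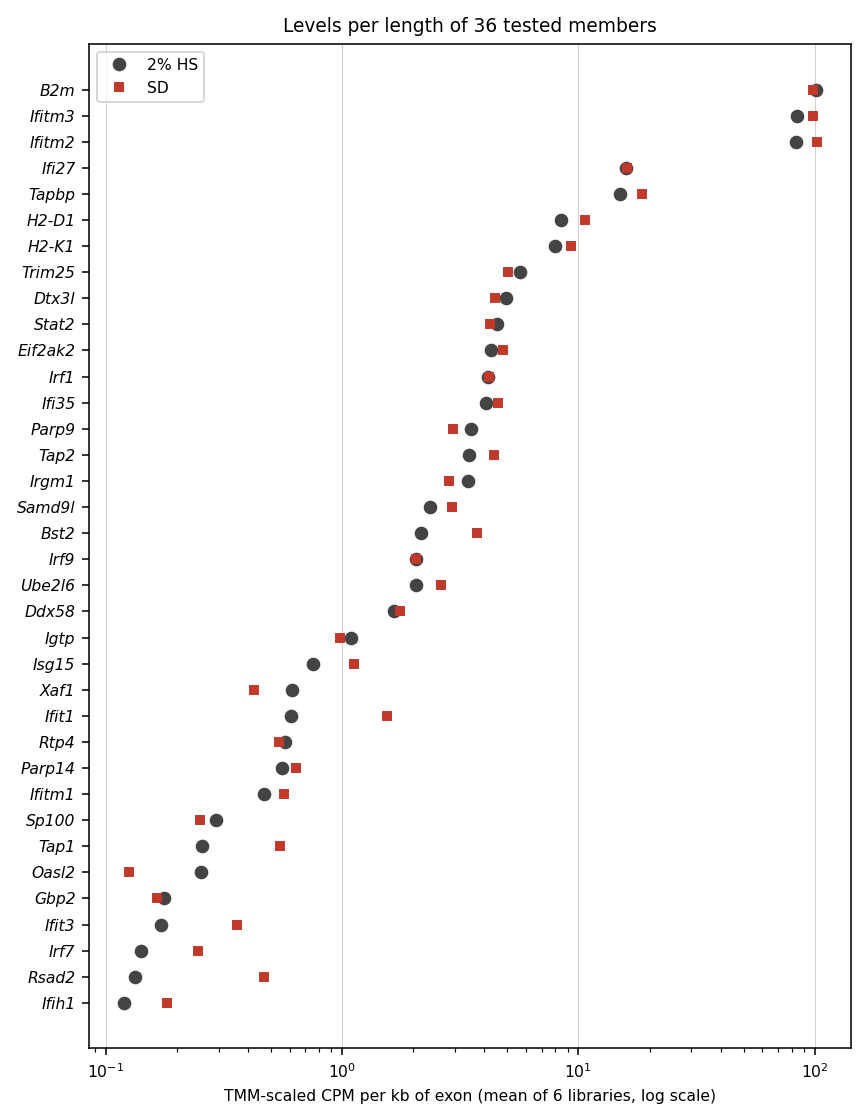
Mean level of each of the 36 tested members in 2% HS (circles) and SD (squares), n = 6 libraries, in TMM-scaled CPM per kb of exon on a log axis, ordered by the level in 2% HS. B2m, Ifitm2 and Ifitm3 lie near 100 CPM per kb, and Ifit1, Rsad2 and Tap1 lie further right in SD than in 2% HS.

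The first comparison asked what 4 days without serum did to these genes. In SD vs. 2% HS, 18 of the 36 tested members passed the test, 12 higher and 6 lower, which is 50% of the members, where 27.8% of all 15907 genes tested passed. Of all genes, 13.9% were higher and 13.9% lower. The median log2 fold change was 0.18 over the members and 0.00279 over all genes. The antiviral effectors and the MHC class I genes held 11 of the 12 members that were higher, with Rsad2, Ifit1 and Tap1 more than doubled. The sensors and the transcription factors held none that passed. Libraries of SD and 2% HS did not overlap for 5 of the 36 members, or 13.9%, near the 13.6% of all genes. In these bulk libraries fewer cells of a type and less RNA per cell cannot be told apart. Cell type markers moved in this comparison too. The 8 myotube markers summed to 39116 to 41888 CPM in 2% HS and 32386 to 35021 CPM in SD, with 2 higher and 2 lower, and the 4 muscle stem cell markers to 306.2 to 322.2 CPM in 2% HS and 242.2 to 256.9 CPM in SD, with 1 higher and 2 lower. Neither sum overlapped between the groups, but each was weighted toward 1 gene. Ttn held 327656 to 626465 counts per library, where the next myotube marker, Acta1, held 32636 to 70368. Pax7 held 1614 to 3855 counts, where the next stem cell marker, Vcam1, held 896 to 1770. The median log2 fold change was -0.02 over the 8 myotube markers, with 4 positive, and -0.24 over the 4 stem cell markers, with 1 positive. The part of these markers in the result was not tested. Adjusted p-values come from the quasi-likelihood test of edgeR, corrected by Benjamini and Hochberg's method for the 15907 genes, and log2 fold changes are given ± SE.

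Rsad2 encodes viperin, an enzyme that makes a chain-terminating nucleotide against viral polymerases (chromosome 12, 26442746 to 26456452, minus strand, GRCm38). Its lowest, median and highest library values were 0.277, 0.522 and 1.161 CPM in 2% HS and 0.984, 2.03 and 2.93 CPM in SD. The groups overlapped, with 5 of 6 SD libraries above every 2% HS library, and Rsad2 was upregulated by a log2 fold change of 1.82 ± 0.29 (adjusted p = 2.7e-06), the largest of the members. This rested on few reads, 4 to 15 counts per library in 2% HS and 18 to 41 in SD.

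Ifit1 encodes a protein that binds viral RNA lacking a host-type cap (chromosome 19, 34640871 to 34650009, plus strand). Its lowest, median and highest values were 1.39, 1.58 and 1.94 CPM in 2% HS and 2.90, 4.11 and 5.16 CPM in SD. The groups did not overlap, as for 13.6% of all genes tested, and the log2 fold change was 1.34 ± 0.17 (adjusted p = 2.2e-08). Its neighbour Ifit3, which stabilises the Ifit complex, had 0 to 9 counts in 2% HS and 3 to 13 in SD, a log2 fold change of 0.96 ± 0.41 and an adjusted p of 0.072.

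Bst2 encodes tetherin, which holds budding virions at the cell surface. It ran from 1.24 to 2.63 CPM in 2% HS with a median of 1.97, and from 2.93 to 3.61 CPM in SD with a median of 3.43. No SD library fell into the 2% HS range, and the log2 fold change was 0.77 ± 0.16 (adjusted p = 0.00021). Ifit1 and Bst2 were also above every 2% HS library in all 24 libraries without serum, whatever the treatment, which held for 3.33% of all genes tested. No member was below every 2% HS library in all 24, as 4.52% of all genes were. Ifit1 was at least 2.63 CPM and Bst2 at least 2.85 CPM in those 24 libraries.

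Smaller rises were measured in 3 further effectors. Ifitm2 was higher by 0.28 ± 0.08 on the log2 scale (adjusted p = 0.0069), Ifitm3 by 0.22 ± 0.06 (adjusted p = 0.0077), and Samd9l, an antiviral and growth-restraining protein, by 0.30 ± 0.10 (adjusted p = 0.013). Samd9l lay at 11.2, 12.7 and 14.7 CPM in 2% HS (lowest, median, highest) and at 12.4, 15.2 and 20.9 CPM in SD, with overlap. Without SD replicate 5 its log2 fold change was 0.21 and the adjusted p 0.0746. Ifitm1, the lowest of its family, and Eif2ak2 (PKR, the kinase that halts translation on double-stranded RNA) did not pass, with log2 fold changes of 0.30 ± 0.38 and 0.16 ± 0.08.

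Oasl2 was the 1 effector that was lower. It belongs to the oligoadenylate synthetase family, which makes the messenger that activates RNase L. Its lowest, median and highest values were 1.01, 1.57 and 2.56 CPM in 2% HS and 0.428, 0.798 and 1.33 CPM in SD. The ranges overlapped, and Oasl2 was downregulated by a log2 fold change of -0.97 ± 0.29 (adjusted p = 0.0078), on 20 to 37 counts in 2% HS and 6 to 20 in SD.

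MHC class I presentation moved in 5 of its 6 members, all higher in SD. Tap1, a subunit of the pump that carries peptides into the endoplasmic reticulum (chromosome 17, 34187553 to 34197225, plus strand), lay at 1.11, 1.35 and 1.71 CPM in 2% HS (lowest, median, highest). In SD the values were 2.64, 2.95 and 3.499 CPM, with no overlap and a log2 fold change of 1.11 ± 0.19 (adjusted p = 6.6e-06). Tap1 shares 212 exonic bases with the antisense gene Psmb9, which held 20 counts over all libraries. Its partner subunit Tap2 lay at 10.4, 12.7 and 16.2 CPM in 2% HS and 13.9, 17.2 and 18.6 CPM in SD. Those ranges overlapped, and Tap2 was higher by 0.34 ± 0.08 on the log2 scale (adjusted p = 0.0013).

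Tapbp, or tapasin, which bridges the pump to empty class I molecules, did not overlap between the groups, with 47.9 to 57.6 CPM in 2% HS and 60.0 to 74.9 CPM in SD. Its log2 fold change was 0.31 ± 0.06 (adjusted p = 1.6e-05). Tapbp shares 904 exonic bases with the antisense gene Gm19412 and 149 with Zbtb22 on its own strand, and reads there could be counted to either gene. H2-D1, a class I heavy chain, lay at 20.02, 22.2 and 23.2 CPM in 2% HS and at 22.6, 28.7 and 31.1 CPM in SD, lowest, median and highest. It rose by 0.34 ± 0.09 on the log2 scale (adjusted p = 0.0056), with a slight overlap of the groups. H2-K1, the other heavy chain, rose by 0.22 ± 0.07 (adjusted p = 0.011). B2m, the light chain that both heavy chains need, was at 87.4 ± 8.94 CPM (standard deviation, n = 6) in 2% HS and 84.3 ± 9.64 CPM in serum deprivation, a log2 fold change of -0.05 ± 0.10 (adjusted p = 0.74).

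The ubiquitin-like and PARP modifiers split. Ube2l6, the conjugating enzyme for Isg15, lay at 3.19, 3.95 and 4.96 CPM in 2% HS and 4.43, 5.30 and 6.06 CPM in SD, lowest, median and highest. The groups overlapped, and it was higher by 0.36 ± 0.14 (adjusted p = 0.045). Trim25, a ubiquitin ligase of RIG-I signalling, was lower by -0.15 ± 0.06 (adjusted p = 0.034). Parp9 and Dtx3l, which form a complex that marks chromatin and viral proteins, were lower by -0.25 ± 0.07 (adjusted p = 0.007) and -0.16 ± 0.06 (adjusted p = 0.044). Parp9 and Dtx3l are neighbours on opposite strands that share 458 exonic bases, and the strand setting of the counting was not given in the sources used here. Isg15 itself, at 5 to 12 counts per library in 2% HS, changed by 0.56 ± 0.30 (adjusted p = 0.17) and Parp14 by 0.19 ± 0.13 (adjusted p = 0.28).

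The calls of Ube2l6, Trim25 and Dtx3l lay at the threshold. Ube2l6 did not pass without 2% HS replicate 3, 4, 5 or 6 or SD replicate 2, 4, 5 or 6 (adjusted p = 0.0566 to 0.141). Trim25 did not pass without 2% HS replicate 2, 4, 5 or 6 or SD replicate 2 or 6 (adjusted p = 0.0547 to 0.101), nor Dtx3l without 2% HS replicate 1, 2 or 3 or SD replicate 1, 2, 3 or 4 (adjusted p = 0.0527 to 0.177).

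Among the GTPases, Irgm1, a regulator of other immunity-related GTPases, was lower in SD without overlap of the groups, at 18.4 to 20.8 CPM in 2% HS and 14.8 to 18.1 CPM in SD. Its log2 fold change was -0.27 ± 0.07 (adjusted p = 0.0018). Gbp2 and Igtp, the other tested interferon-inducible GTPases, did not pass, at -0.06 ± 0.37 and -0.17 ± 0.20. Of the other interferon-stimulated members, Xaf1, a protein that opposes the caspase inhibitor XIAP, lay at 2.35, 2.82 and 3.31 CPM in 2% HS and at 1.31, 2.05 and 2.43 CPM in SD. The groups overlapped slightly, and Xaf1 was lower by -0.52 ± 0.17 (adjusted p = 0.018), a call that was lost without 2% HS replicate 4 (adjusted p = 0.0501) or SD replicate 5 (adjusted p = 0.0544). Ifi27, Ifi35, Rtp4 and Sp100 did not pass, with log2 fold changes from -0.22 to 0.17.

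None of the 6 tested sensors and transcription factors among the members passed. Ifih1 (MDA5) and Ddx58 (RIG-I), helicases that detect viral RNA, changed by 0.57 ± 0.27 (adjusted p = 0.11) and 0.08 ± 0.10 (adjusted p = 0.6). Stat2, Irf9 and Irf1 had log2 fold changes from -0.10 to 0.01. Irf7, the factor that amplifies type I interferon, changed by 0.78 ± 0.38 (adjusted p = 0.13), on few reads.

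**Figure D2:**
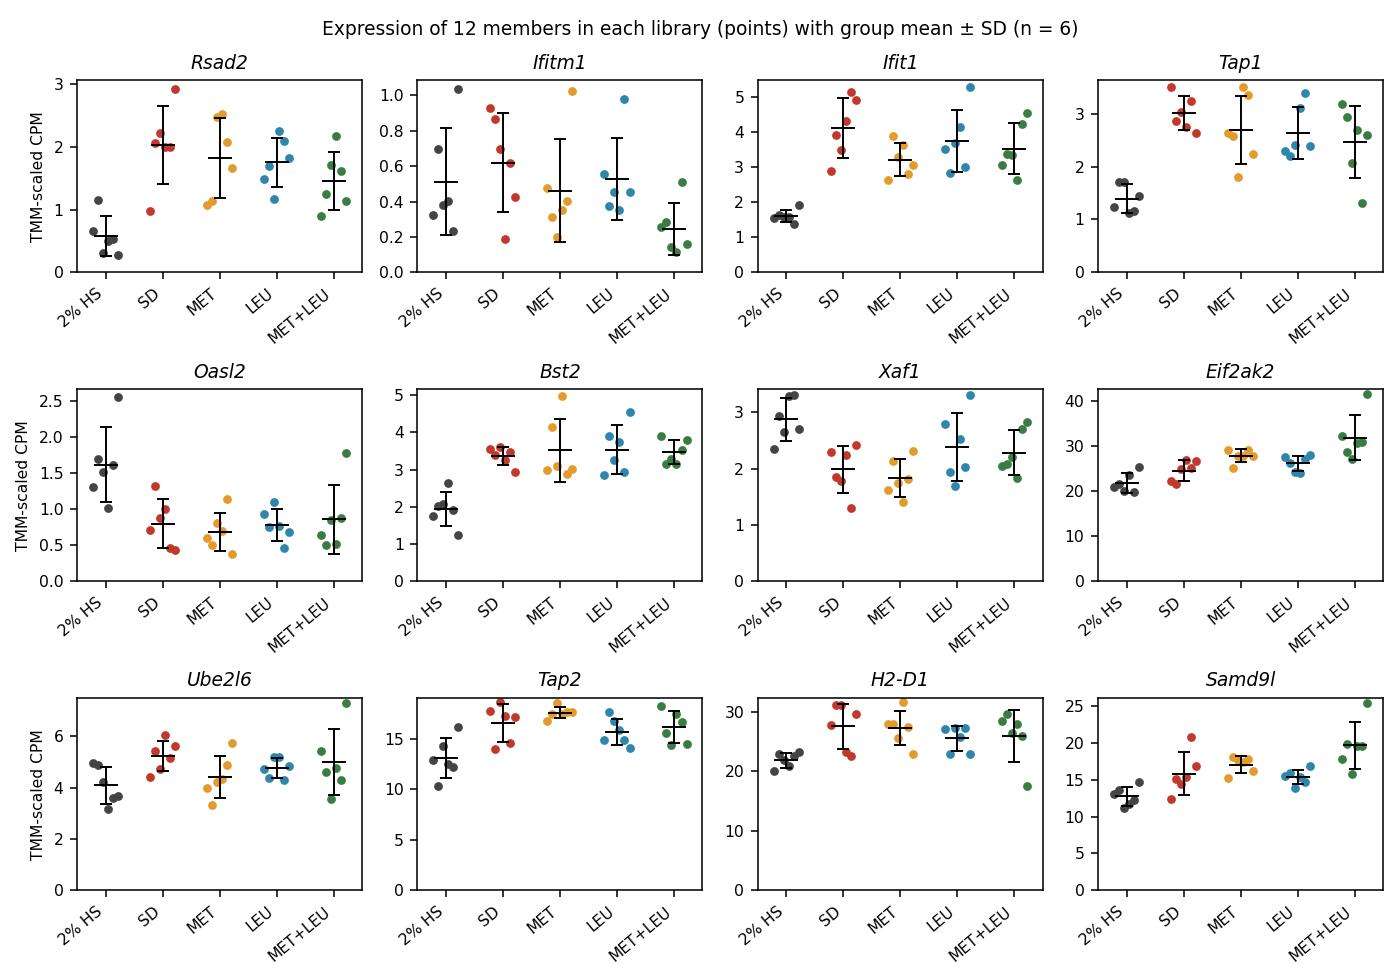
TMM-scaled CPM of 12 members in each library (points, 6 per group, in the order of their replicate numbers), with the group mean and SD (bars), for 2% HS, SD, MET, LEU and MET+LEU. The means of Rsad2, Ifit1, Tap1 and Bst2 are lower in 2% HS than in the groups without serum, that of Oasl2 is higher, and Eif2ak2 and Samd9l have their highest library in MET+LEU.

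Genes of the pathway beyond the members were read from lists of 5 further groups. Of 15 tested receptor and JAK-STAT genes, 3 were higher and 2 lower in SD, with Irf5 at 0.97, Ifngr1 at 0.27 and the feedback inhibitor Socs3 at -0.25 on the log2 scale (adjusted p = 0.0013, 0.00051 and 0.00087). Of 12 tested sensors and adaptors, 3 were higher and 1 lower, the latter Zbp1 at -1.03 (adjusted p = 0.0052), a sensor of Z-form nucleic acid, with Tlr3 at 0.44 and Cgas at 0.39 (adjusted p = 0.031 and 0.0049). Of 25 other interferon-stimulated genes tested, 8 were higher and 2 lower. The guanylate-binding GTPases Gbp4 and Gbp10 rose most, by 1.54 ± 0.12 and 1.20 ± 0.11 (adjusted p = 5.0e-15 and 4.5e-12), and Ifi207 fell by 1.158 on the log2 scale (adjusted p = 0.00079). The changes of Irf5, Zbp1 and Ifi207 rested on few reads, with 9 to 34, 3 to 33 and 6 to 66 counts per library over all groups.

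Of 15 other MHC class I presentation genes tested, 4 were higher and 0 lower in SD, among them the chaperones Calr at 0.55 and Pdia3 at 0.38 and the non-classical class I gene H2-T23 at 0.31 (adjusted p = 7.0e-16, 3.3e-11 and 0.0069). Calr and Pdia3 also serve general protein folding in the endoplasmic reticulum. The immunoproteasome genes Psmb8 and Psmb9 reached 7 and 3 counts in any library and were not tested. The classical interferon-stimulated genes Mx1 and Oas1a reached 7 and 2 counts. Of 8 MHC class II genes 1 was tested, and it did not pass. By percentage, 33.3%, 33.3%, 40% and 26.7% of the receptor, sensor, interferon-stimulated and class I lists passed in this comparison, to be read against the 27.8% of all genes.

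**Figure D3:**
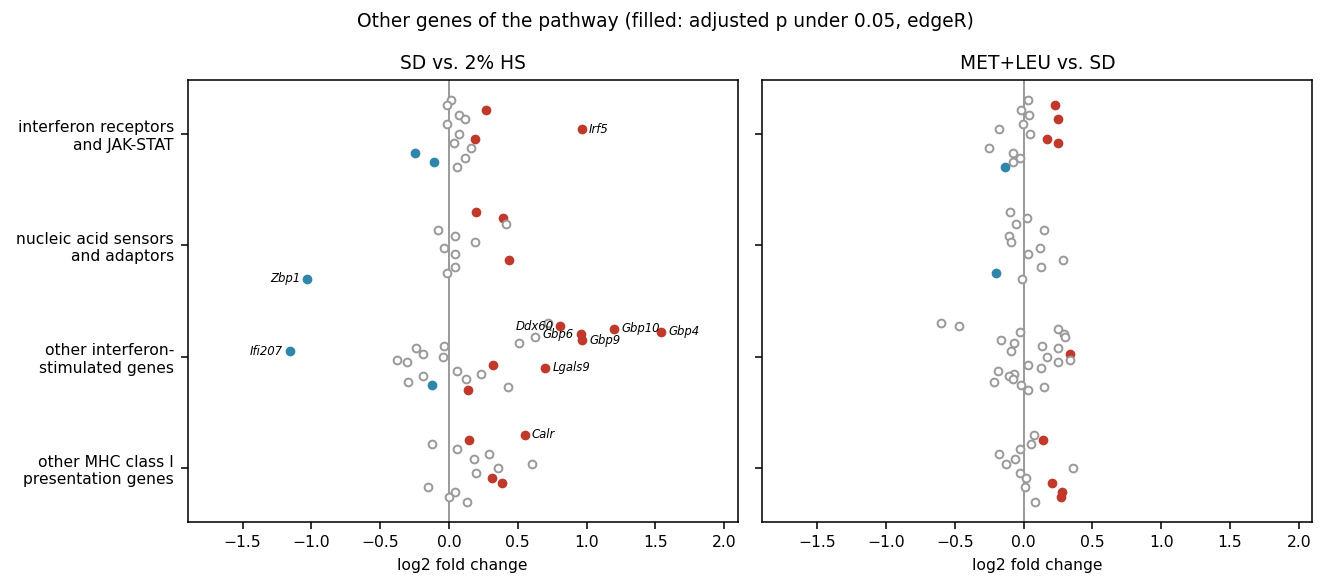
Log2 fold changes of tested genes of 4 further pathway lists in 2 comparisons (SD vs. 2% HS, left, and MET+LEU vs. SD, right), 1 point per gene, filled where the adjusted p was under 0.05 (red higher, blue lower), with names for filled genes at or beyond 0.5 in size. Gbp4 and Gbp10 lie farthest to the right in the left panel, and no filled gene of the right panel lies beyond 0.5.

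The next comparisons asked whether either compound alone moved these genes in serum-deprived myotubes. In MET vs. SD, 0 of 36 members passed edgeR's test, and 0 passed DESeq2's Wald test, where 0.157% of all genes passed edgeR's. At an unadjusted p under 0.05 there were 3 members, Ifit1, Eif2ak2 and Gbp2, which is 8.33% of the members, where 10% of all genes reached it. The member with the smallest adjusted p was Gbp2 (0.87 ± 0.33, adjusted p = 0.33), and the log2 fold changes ran from -0.48 (Irf7) to 0.87 (Gbp2). The 95% interval was -0.66 to -0.02 for Ifit1, -0.64 to 0.36 for Rsad2, -0.51 to 0.19 for Tap1 and -0.24 to 0.37 for Bst2.

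In LEU vs. SD, 0 of 36 members passed edgeR's test and 0 passed DESeq2's Wald test, where 0.553% of all genes passed edgeR's. There were 2 members at an unadjusted p under 0.05, Tapbp and Sp100, a nuclear body protein, of which Sp100 had the smallest adjusted p (0.56 ± 0.19, adjusted p = 0.22). The background at that level was 9.98% of all genes. Log2 fold changes ran from -0.47 to 0.56, and the 95% interval was -0.43 to 0.20 for Ifit1, -0.70 to 0.30 for Rsad2 and -0.55 to 0.15 for Tap1. These 3 intervals leave room for changes in either direction, and a missed threshold does not show that the compounds had no effect.

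In MET+LEU vs. SD, 4 of 36 members passed, 2 higher and 2 lower, which is 11.1% of the members, where 18.4% of all genes tested passed, 10.6% higher and 7.8% lower. The median log2 fold change was -0.01 over the members, against -0.00502 over all genes. Eif2ak2 and Samd9l were higher, and Ifitm1 and Tapbp lower. The members with the largest rise in SD did not pass, with log2 fold changes of -0.45 ± 0.25 for Rsad2, -0.22 ± 0.15 for Ifit1, -0.27 ± 0.17 for Tap1 and 0.04 ± 0.15 for Bst2.

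Eif2ak2 (PKR, chromosome 17, 78852564 to 78882573, minus strand) was the 1 member whose groups did not overlap, as for 5.34% of all genes tested. Its lowest, median and highest values were 21.5, 24.98 and 26.8 CPM in SD and 27.2, 30.8 and 41.5 CPM in MET+LEU, with 19.7, 21.3 and 25.4 CPM in 2% HS. MET and LEU alone were at 25.1, 27.8 and 29.2 CPM and at 23.9, 26.6 and 27.98 CPM. Their medians lay between those of SD and MET+LEU, and their ranges overlapped both. Eif2ak2 rose by 0.37 ± 0.07 on the log2 scale (adjusted p = 0.00028). The highest value belonged to MET+LEU replicate 6. Without it Eif2ak2 was still higher, by 0.28 (adjusted p = 0.0013).

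Samd9l lay at 12.4, 15.2 and 20.9 CPM in SD and at 15.7, 19.6 and 25.4 CPM in MET+LEU, lowest, median and highest. The groups overlapped, and its log2 fold change was 0.32 ± 0.09 (adjusted p = 0.011). Ifitm1 lay at 0.187, 0.656 and 0.929 CPM in SD and at 0.115, 0.208 and 0.513 CPM in MET+LEU. It was lower by -1.34 ± 0.44 (adjusted p = 0.026), on 3 to 17 counts per library in SD and 2 to 7 in MET+LEU. Tapbp had 60.0 to 74.9 CPM in SD and 49.7 to 64.7 CPM in MET+LEU, a log2 fold change of -0.17 ± 0.05 (adjusted p = 0.023).

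The other 3 calls depended on single libraries. Without MET+LEU replicate 6, the library with the high ribosomal RNA share, 1 of the 4 calls was left, with log2 fold changes of 0.23 for Samd9l (adjusted p = 0.0587), -1.27 for Ifitm1 (adjusted p = 0.0509) and -0.13 for Tapbp (adjusted p = 0.0732). Samd9l was also lost without SD replicate 1 (0.0604), Ifitm1 without SD replicate 1 (0.0851), SD replicate 2 (0.064) or MET+LEU replicate 4 (0.0624), and Tapbp without SD replicate 3 (0.0704), all adjusted p. Tapbp was also lost when GC content was corrected for (-0.09, adjusted p = 0.17). Markers of cycling cells moved in this comparison too: all 5 of 5 were lower, and their sum ran from 145.8 to 209.6 CPM in SD and from 109.8 to 142.6 CPM in MET+LEU, where the highest was replicate 6 and the next 129.6 CPM. All 5 were also lower without replicate 6. Of 8 myotube markers 2 were higher, Tnnt3 by 0.82 and Myh3 by 0.36 on the log2 scale (adjusted p = 1.1e-05 and 0.0048). Of 4 stem cell markers 1 was higher, Vcam1 by 0.15 (adjusted p = 0.018). That is 25% of each list, beside 18.4% of all genes, and these calls were left without replicate 6. The mitochondrial ribosomal RNA share was higher in MET+LEU than in SD in every library. The part of these measures in the result was not tested.

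In the further lists, 5 of 15 receptor and JAK-STAT genes passed in MET+LEU vs. SD, 4 higher and 1 lower, or 33.3% of the list beside the 18.4% of all genes, among them Irf2 at 0.25, the phosphatase gene Ptpn2 at 0.25 and Ifnar2 at 0.23 on the log2 scale (adjusted p = 0.0018, 0.0010 and 0.0067). Of 12 sensors and adaptors 1 passed (8.33%), Tmem173, which encodes STING and was lower by -0.20 (adjusted p = 0.011), and of 25 other interferon-stimulated genes 1 passed (4%), Ifi211, which was higher by 0.34 (adjusted p = 0.027). In the class I list 4 of 15 were higher (26.7%) and 0 lower. The proteasome activator genes Psme1 and Psme2 rose by 0.28 and 0.27 (adjusted p = 0.0033 and 0.0036), and Pdia3 rose by 0.21 (adjusted p = 0.00013). Without MET+LEU replicate 6, 4 of the 5 receptor and JAK-STAT calls were left, the 1 sensor call, none of the other interferon-stimulated genes and all 4 class I calls. The calls lost were Ifi211 (0.29, adjusted p = 0.0764) and the kinase gene Tyk2 (-0.14 with all libraries and -0.11 without replicate 6, adjusted p = 0.04999 and 0.128). The log2 fold changes without it were 0.19 for Irf2, 0.20 for Ptpn2, 0.22 for Ifnar2, -0.17 for Tmem173, 0.27 for Psme1 and Psme2 and 0.17 for Pdia3.

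In the direct comparisons of the combination with each compound, 1 member passed in MET+LEU vs. MET and 2 in MET+LEU vs. LEU, where 8.69% and 6.28% of all genes passed. Tapbp was lower than in MET by -0.19 ± 0.05 (adjusted p = 0.026). Eif2ak2 and Samd9l were higher than in LEU by 0.28 ± 0.07 and 0.35 ± 0.09 (adjusted p = 0.017 for each). Without MET+LEU replicate 6 these log2 fold changes were -0.15, 0.19 and 0.26 (adjusted p = 0.0699, 0.104 and 0.0811). Tapbp was also lost without MET replicate 6 (adjusted p = 0.055), both Eif2ak2 (0.0686) and Samd9l (0.0648) without LEU replicate 3, and Eif2ak2 without LEU replicate 4 (0.0603). The test of whether the effect of one compound depended on the other, the MET by LEU interaction, called 0 of 36 members by edgeR and 0 by DESeq2, with 0 at an unadjusted p under 0.05. Of all genes 0.0503% passed edgeR's test and 8.73% had an unadjusted p under 0.05.

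**Figure D4:**
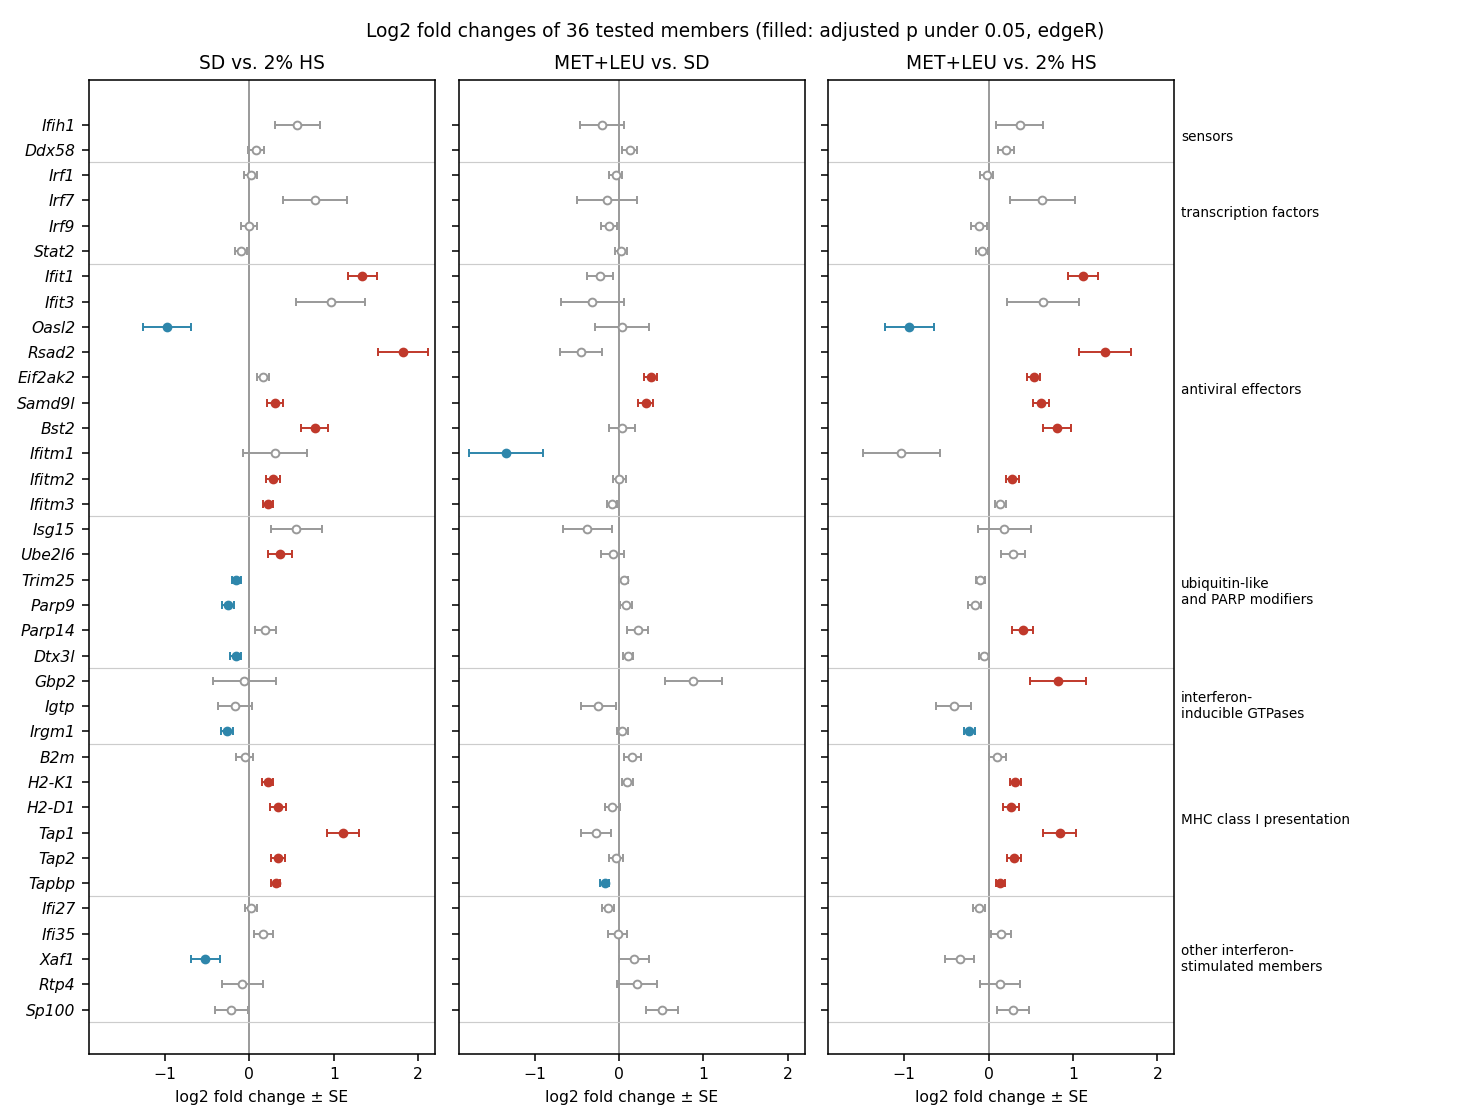
Log2 fold change ± SE of the 36 tested members, grouped by role, in 3 comparisons, named above each panel, filled where the adjusted p was under 0.05 (red higher, blue lower). In the left panel Rsad2, Ifit1 and Tap1 lie farthest to the right, and the 4 filled members of the middle panel are Eif2ak2, Samd9l, Ifitm1 and Tapbp.

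The last comparison set the combination against serum. In MET+LEU vs. 2% HS, 15 of 36 members passed, 13 higher and 2 lower, which is 41.7% of the members, where 42.3% of all genes passed. By direction the members were 36.1% higher and 5.56% lower, and all genes 22.1% higher and 20.3% lower. This comparison shares its 2% HS libraries with SD vs. 2% HS and its MET+LEU libraries with MET+LEU vs. SD, so its values stand beside theirs as a description. Cell type markers moved here as well. Of 8 myotube markers 4 were higher and 2 lower, and of 5 cycling cell markers 4 were lower. Of 4 stem cell markers 1 was higher and 2 lower. The part of these markers in the result was not tested. Rsad2 was at 0.892, 1.43 and 2.18 CPM in MET+LEU (lowest, median, highest), a log2 fold change from 2% HS of 1.37 ± 0.31, beside 1.82 in SD. Ifit1 was at 2.64, 3.37 and 4.54 CPM, a log2 fold change of 1.12 ± 0.18, beside 1.34 in SD. Tap1 was at 1.32, 2.64 and 3.19 CPM, a log2 fold change of 0.84 ± 0.19, beside 1.11 in SD. The adjusted p were 0.0003, 1.2e-06 and 0.00042.

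Eif2ak2 and Samd9l, the members higher in MET+LEU than in SD, stood 0.53 ± 0.07 and 0.62 ± 0.09 above 2% HS (adjusted p = 9.4e-08 and 4.8e-07), without overlap of the groups, as for 21% of all genes tested. Without MET+LEU replicate 6 the log2 fold changes of Eif2ak2 and Samd9l were 0.44 and 0.53 (adjusted p = 1.4e-07 and 1.2e-06), and all 15 members still passed. Of the 36 tested members 5 did not overlap, or 13.9% beside the 21% of all genes. They were Eif2ak2, Samd9l, Ifit1, Bst2 and H2-K1, all among the 15 that passed. Bst2 was higher by 0.81 ± 0.16 and H2-K1 by 0.31 ± 0.07 (adjusted p = 6.7e-05 and 0.00013). Tap2 and Ifitm2 were higher by 0.30 ± 0.08 and 0.28 ± 0.08 (adjusted p = 0.0027 and 0.0043), and Parp14, an ADP-ribosyltransferase, by 0.41 ± 0.12 (adjusted p = 0.0069).

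Oasl2 and Irgm1 were the 2 lower members, by -0.94 ± 0.29 and -0.23 ± 0.07 (adjusted p = 0.0068 and 0.0049). Gbp2, H2-D1 and Tapbp were higher by 0.82 ± 0.33, 0.26 ± 0.09 and 0.14 ± 0.06 (adjusted p = 0.044, 0.024 and 0.04). Of these, Gbp2 did not pass without 2% HS replicate 1, 2, 3, 4 or 6 or MET+LEU replicate 1, 2 or 4 (adjusted p = 0.0662 to 0.173). H2-D1 did not pass without 2% HS replicate 1 or 4 or MET+LEU replicate 1, 2 or 4 (0.0611 to 0.0823), nor Tapbp without 2% HS replicate 2, 3, 4 or 6 or MET+LEU replicate 1, 2, 3, 4 or 5 (0.0508 to 0.172), all adjusted p.

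**Figure D5:**
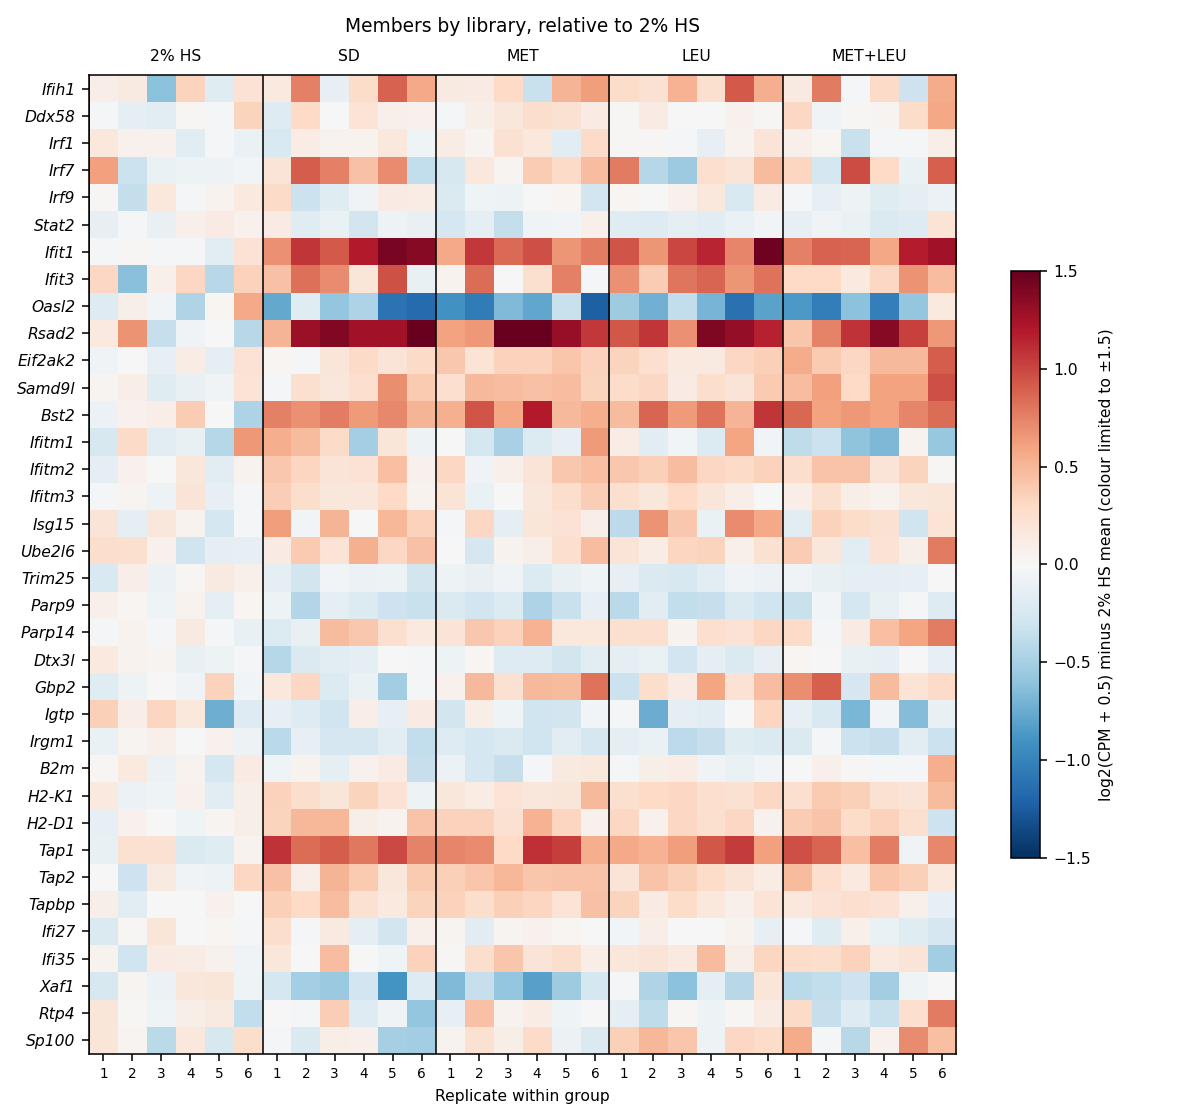
Each library's log2(CPM + 0.5) minus the 2% HS mean for the 36 tested members (rows, grouped by role) in 30 libraries (columns, by group and replicate), with the colour limited to ±1.5. Ifit1, Rsad2, Bst2 and Tap1 are red through most libraries without serum and Oasl2 is blue through most of them.

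Summed over the members, the interferon response and class I genes took 541 to 592 CPM in 2% HS, 583 to 632 CPM in SD, 576 to 661 CPM in MET, 597 to 624 CPM in LEU and 604 to 664 CPM in MET+LEU (604 to 641 CPM without replicate 6). B2m, Ifitm2, Ifitm3 and Tapbp together made up 44.5% of the summed means in 2% HS and 46.3% in SD.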

How the data were processed

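Total RNA from C2C12 myotubes was sequenced as stranded, ribosomal RNA-depleted paired-end libraries. The authors deposited 1 table of raw counts per gene and library, and per the labels' processing notes reads were trimmed with cutadapt 1.16, aligned with STAR 2.7.6a to GRCm38 and counted with featureCounts 1.6.3. The annotation release and strand setting are not given in the sources used here. Symbols, coordinates and exon lengths came from a GENCODE annotation of GRCm38, which matched 55227 of 55487 IDs. Unmatched IDs held 0.00434% of counts.

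Counts from all 30 libraries were filtered with filterByExpr over the 5 groups (minimum count 10), scaled by TMM and fitted with edgeR 4.0.16 (R 4.3.3) by robust quasi-likelihood, with group as the only term and Benjamini-Hochberg adjustment over 15907 genes. Calls have an adjusted p under 0.05, and 95% intervals use the fitted SE and the t distribution on the residual degrees of freedom. Library totals limit the precision: 3 counts equal 0.152 to 0.243 CPM. The code was tested on simulated data. No replicate pair agreed within sampling noise (lowest chi-square per degree of freedom 2.33). Pairs that held MET+LEU replicate 6 lay at 112.4 to 166.4, and all other pairs at 2.33 to 16.2.

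The members and gene lists were chosen with earlier results of these data known. Every member past the threshold in a comparison is named, 12 members with the largest changes among those past the threshold in SD vs. 2% HS or MET+LEU vs. SD have library values, and up to 3 genes per further list are named. Further named genes (Psmb8, Psmb9, Mx1, Oas1a, Tyk2, and B2m's and Tapbp's library values) were added after their values were seen. Irgm1's library ranges are also given outside this rule. Alternatives were DESeq2's size factors, upper-quartile scaling, DESeq2's Wald test (1.42.0), no filter, only the groups compared, a replicate block, a GC offset, both together, and each library left out.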

Additional observations from a re-analysis of the deposited data

Results flagged for a closer look

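In 20 members past the threshold in SD vs. 2% HS or MET+LEU vs. SD, 100 groups of 6 libraries were examined for a library set apart by more of the group's range than Dixon's test allows, which chance gives in about 1 of 20 groups. There were 7 such values. MET+LEU replicate 6 gave 3 of them: Oasl2 at 1.78 CPM (nearest library 0.879), H2-D1 at 17.5 CPM (nearest 25.9) and Eif2ak2 at 41.5 CPM (nearest 32.2). MET replicate 6 gave 2, H2-K1 at 33.0 CPM (nearest 27.2) and Ifitm1 at 1.02 CPM (nearest 0.479). Eif2ak2 in MET replicate 2 was at 25.1 CPM (nearest 27.8), and Ifitm1 in LEU replicate 5 at 0.977 CPM (nearest 0.558).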

How the results depend on the processing

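The direction of every called member held in each alternative in which it could be fitted, and 18 members passed in SD vs. 2% HS against 15 to 19 over the alternatives (15 to 18 with a library left out). For MET+LEU vs. 2% HS the 15 became 13 to 16 and, with a library left out, 12 to 18. With only the groups compared in the fit, the count became 1 in MET+LEU vs. SD, 0 in MET+LEU vs. MET and 0 in MET+LEU vs. LEU. With a library left out it ran from 1 to 6, 0 to 2 and 0 to 2. In MET vs. SD, LEU vs. SD and the interaction it was 0 throughout. Ifitm1 in MET+LEU vs. SD had no adjusted p from DESeq2 and was not in the fit of only the groups compared. Low counts limit Rsad2, Ifit3, Irf7, Ifih1, Oasl2, Ifitm1, Isg15 and Gbp2. Gbp2 held 5 to 9 counts per library in 2% HS, 2 to 10 in SD, 8 to 18 in MET and 4 to 22 in MET+LEU.

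In SD vs. 2% HS, Ube2l6 lost its call with upper-quartile scaling, DESeq2's Wald test or no filter (adjusted p 0.0538, 0.0531 and 0.0542), Dtx3l with DESeq2's test, no filter or only the groups compared (0.0545, 0.0855 and 0.0728), and Trim25 with the last 2 (0.0885 and 0.0708), while Eif2ak2 passed with the GC offset (0.18, adjusted p = 0.038). In MET+LEU vs. 2% HS, Gbp2 lost its call in 5 alternatives and Tapbp in 3. The causes were not tested.

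Replicate numbers are shared between the groups, and no sign that they pair the libraries was seen. A mean correlation over genes cannot exclude a pairing. Same-numbered libraries of different groups had a mean correlation of deviations of 0.0157 over 60 pairs (-0.0913 to 0.142), against -0.00314 over 300 pairs of unlike number. With the replicate block the count in MET+LEU vs. MET became 2, and Gbp2 in MET+LEU vs. 2% HS had an adjusted p of 0.0527.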
